A study of Mus musculus with 6 samples.

Results

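The microtubule motors kinesin and cytoplasmic dynein were measured in the brain of Dap12-ko and Dap12-het mice. Members were all probe sets whose single gene symbol in the platform annotation begins with Kif and a digit or c, or with Klc, Dync, Dynl or Dctn. A probe set is a group of short probes on the array that are read together as 1 signal. The names gave 63 of the 18193 genes that a single symbol names, measured by 146 of the 45101 probe sets of the table. The study profiled total RNA on one-colour Affymetrix arrays, 3 from Dap12-ko mice (67, 68 and Ko1, without a working copy of Tyrobp, the gene for the microglial signalling adaptor Dap12) and 3 from Dap12-het mice (75, 76 and 81, with 1 working copy). All were 1 month old, and the tissue was brain, described as midbrain with diencephalon and basal ganglia. The labels give no strain, sex or treatment and do not say whether each array was a separate animal, so a p-value here reflects only how far these arrays spread, which may be technical. Because the tissue is a mixture, a lower signal can mean fewer cells of a type or less RNA per cell, and these cannot be told apart.

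Kinesins and dynein are motors that burn ATP to walk along microtubules. Most kinesins carry cargo towards the plus end, which in an axon points away from the cell body, and cytoplasmic dynein with its cofactor dynactin carries cargo back. Neurons depend on both because vesicles, mitochondria and RNA granules must travel the length of axons and dendrites, while another set of kinesins works in the mitotic spindle of dividing cells.

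Signals are given as deposited, on a linear scale, always in the order 67, 68 and Ko1 for Dap12-ko and 75, 76 and 81 for Dap12-het. Changes are differences of log2(signal + 16), Dap12-ko minus Dap12-het, with their standard error from limma, and they understate the change of dim probe sets. A probe set passed when its p, adjusted by Benjamini-Hochberg over all probe sets tested, was under 0.05. Tyrobp itself gave 2.28, 23.7 and 12.9 on the Dap12-ko arrays, against 70.7, 68.2 and 77.6 on the Dap12-het arrays (log2 change -1.68 ± 0.33, adjusted p = 0.0439). The arrays were not alike within the Dap12-ko group. Across all probe sets other than controls, Dap12-ko 67 and 68 correlated with the Dap12-het arrays at 0.891 to 0.921 and Dap12-ko Ko1 at 0.942 to 0.954, while the Dap12-het arrays correlated among themselves at 0.968 to 0.982. Of 45 spiked bacterial control probe sets, 43 were higher on every Dap12-ko array than on every Dap12-het array. The ratio of 3' to 5' control signal ran from 0.702 to 1.21 on Dap12-ko arrays and 0.997 to 1.42 on Dap12-het arrays for Gapdh. For Actb it ran from 1.76 to 2.33 on Dap12-ko arrays and 1.59 to 2.12 on Dap12-het arrays, so both pairs of ranges overlap. Summed over 14 neuronal markers, the signal ran from 23281 to 34262 on Dap12-ko arrays and from 21845 to 24117 on Dap12-het arrays. Over 10 markers of myelinating oligodendrocytes it ran from 29811 to 69211 on Dap12-ko arrays and from 22255 to 23178 on Dap12-het arrays. Sums for astrocytes (14230 to 15228 on Dap12-ko arrays, 11042 to 13790 on Dap12-het arrays) and microglia (2613 to 3034 on Dap12-ko arrays, 1788 to 2266 on Dap12-het arrays) also did not overlap. The lowest single marker signal, taken on the brightest probe set of each gene, was 149 among the neuronal markers and 344 among the myelin markers. Of their tested probe sets, 2 of 26 neuronal ones (7.69%) and 8 of 25 myelin ones (32%) passed as higher, against 1.24% of all probe sets tested. By limma 0 of either passed as lower, against 0.733%. At an unadjusted p under 0.05, 5 neuronal (19.2%) and 16 myelin ones (64%) were higher, against 11.7% of all probe sets. At the same level 3 (11.5%) and 0 were lower, against 9.22%. Among astrocyte and microglia markers, 1 of 26 and 0 of 14 tested probe sets passed as higher and 0 of either as lower (limma). At an unadjusted p under 0.05, 8 (30.8%) and 4 (28.6%) were higher and 2 (7.69%) and 0 lower. The lowest single marker signal was 170 for astrocytes and 11.6 for microglia. The part of these differences in the motor results was not tested.

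Of the 146 motor probe sets, 92 from 44 genes were bright enough to be tested and 54 were not. For 7 of the 92, among them Kif5c 1450804_at, Kif13a 1447853_x_at, Kif18b, Klc4 1425547_a_at and Dctn4 1420863_at, the Dap12-het mean lay below the filter, so they were tested through their Dap12-ko signals and had to lie above 0. Of the 92, 4 were higher in Dap12-ko brain (4.35%), against 1.24% of all 22518 probe sets tested. None of the 92 was lower (0 by limma), against 0.733% of all probe sets tested. At an unadjusted p under 0.05, 17 were higher (18.5%, against 11.7% of all probe sets) and 8 were lower (8.7%, against 9.22%). The 4 belonged to Kif5c and Kif5a, the neuronal heavy chains of kinesin-1, to Kif3b, a motor subunit of kinesin-2, and to Dynlt3, a dynein light chain. Signals of both groups did not overlap for 16 motor probe sets that were higher in Dap12-ko (17.4%, against 14.9% of all probe sets) and for 11 that were lower (12%, against 12.5%). The median change was 0.05 over the motor probe sets and 0.00170 over all probe sets. The shares without overlap are near those of the whole array, and the share past the threshold rests on 4 probe sets. The counts by role given below rest on fewer probe sets each and are to be read beside these shares of all probe sets. The count of motor calls was 0 by limma without Dap12-ko 67 (19 at an unadjusted p under 0.05), without Dap12-ko 68 (19), without Dap12-het 75 (16) and without Dap12-het 81 (15), and it was 1 without Dap12-het 76. Where it was 0, none of all 22518 probe sets passed either (0 by limma; 3887, 3516, 2896 and 3272 at an unadjusted p under 0.05, in the same order). Without Dap12-het 76, 29 passed. The losses of single calls given below with 1 array left out thus came in settings where few or no probe sets passed at all. Calls of Kif3b and Dynlt3 were also lost in other settings. One of these was median centring, with 581 of all probe sets called. Without Dap12-ko Ko1 it was 21 higher and 15 lower of 94 tested, with 11.9% and 11.3% of all probe sets then called in those directions. Leaving out Dap12-ko 67 and 68 together, a setting chosen after seeing the data, leaves Ko1 as the only Dap12-ko array. For that setting only changes are given. The 4 called probe sets then had changes of 2.35 (Kif5c), 2.33 (Kif5a), 1.21 (Kif3b) and 1.06 (Dynlt3).

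**Figure D1:**
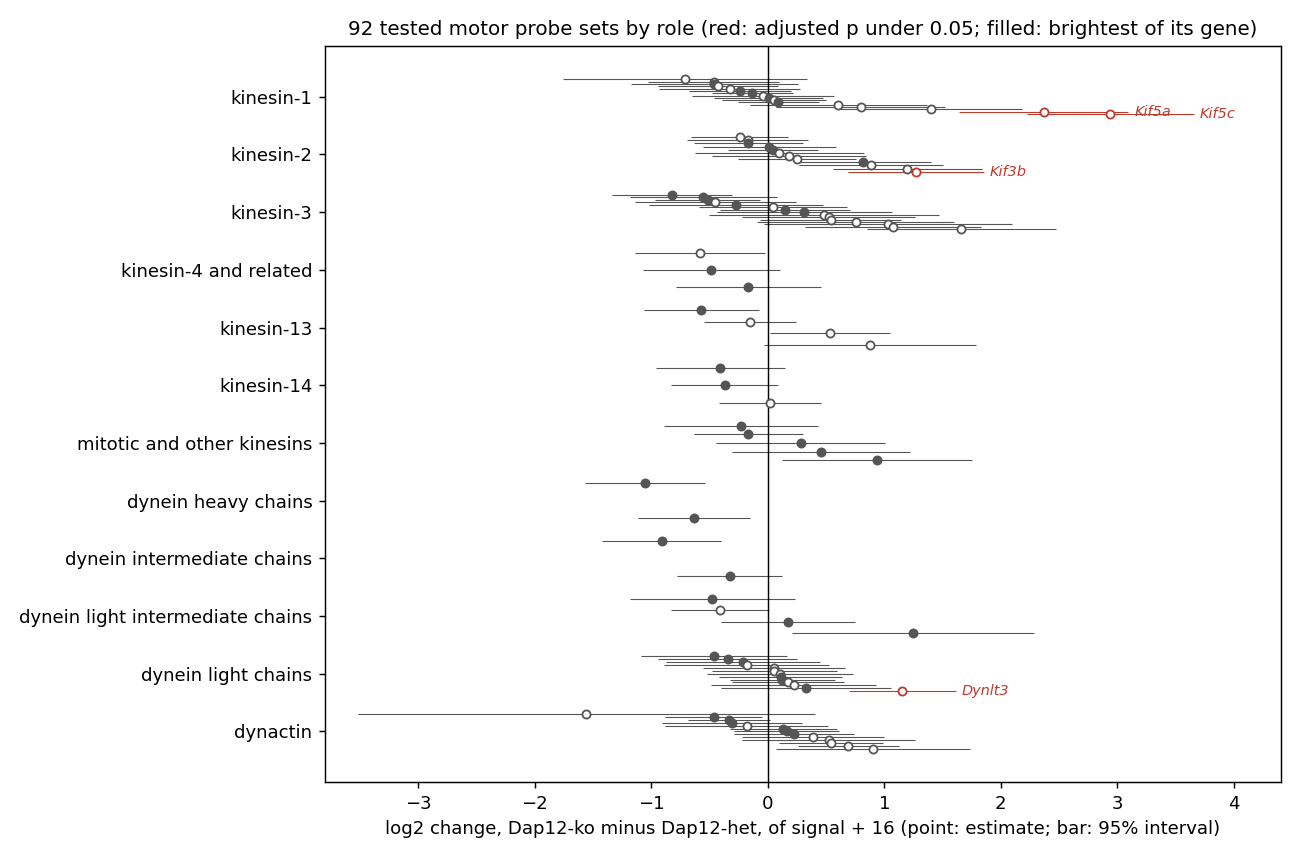
Log2 change (Dap12-ko minus Dap12-het, of signal + 16) of the 92 tested motor probe sets, grouped by role. Points are limma estimates and bars 95% intervals; filled points are the brightest probe set of a gene. The 4 probe sets past the threshold, in red, all lie above 0 and are open points, so none is the brightest of its gene.

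Promoters are shown to set side by side the annotated start regions of genes with at least 1 probe set called higher. The sequence was in the RefSeq promoter table (mouse build GRCm38.p6) for 3 of these 4 genes. They are Dynlt3 at chrX:9662934-9663233 (minus strand), Kif3b at chr2:153291166-153291465 (plus strand) and Kif5c at chr2:49619036-49619335 (plus strand), from 250 bases before to 50 after the annotated start. Each is written 5′ to 3′, with matches on either strand to GGGCGG (GC box), TGACGTCA (cyclic AMP response element), CCAAT and TATAAA in capitals; none of these matches overlap.
Kif5c promoter: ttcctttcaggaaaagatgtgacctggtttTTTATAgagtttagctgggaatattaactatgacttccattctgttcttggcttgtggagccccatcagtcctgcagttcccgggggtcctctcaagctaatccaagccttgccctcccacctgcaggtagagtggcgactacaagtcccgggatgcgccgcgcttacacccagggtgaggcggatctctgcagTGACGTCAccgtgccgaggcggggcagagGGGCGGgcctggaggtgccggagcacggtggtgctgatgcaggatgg
Kif3b promoter: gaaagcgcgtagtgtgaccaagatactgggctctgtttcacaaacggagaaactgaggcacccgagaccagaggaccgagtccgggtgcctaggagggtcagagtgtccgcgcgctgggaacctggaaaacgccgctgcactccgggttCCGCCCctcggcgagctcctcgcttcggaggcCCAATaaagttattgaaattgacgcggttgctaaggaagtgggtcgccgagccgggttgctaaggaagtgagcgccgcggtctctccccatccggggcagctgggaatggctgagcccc
Dynlt3 promoter: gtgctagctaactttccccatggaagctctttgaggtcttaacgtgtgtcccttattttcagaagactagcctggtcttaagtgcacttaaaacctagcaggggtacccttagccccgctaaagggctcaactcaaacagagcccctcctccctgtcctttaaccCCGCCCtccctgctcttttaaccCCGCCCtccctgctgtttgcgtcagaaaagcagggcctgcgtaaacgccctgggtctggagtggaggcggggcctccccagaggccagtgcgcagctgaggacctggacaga
Kif5c held 1 GC box, 1 cyclic AMP response element and 1 TATAAA, the last of these far upstream of the start. Kif3b held 1 GC box and 1 CCAAT, and Dynlt3 held 2 GC boxes. Of all 32851 promoters in the table, 35.7% held GGGCGG, 1.79% TGACGTCA, 37.4% CCAAT and 13.6% TATAAA, so the GC box shared by the 3 is a common sequence. A match describes letters and shows no bound factor. Whether the called probe sets measure transcripts from these starts was not tested.

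Kinesin-1 is the main motor of fast transport towards axon endings, built from a pair of heavy chains (Kif5a, Kif5b or Kif5c) and a pair of light chains (Klc genes) that bind cargo. Of its 19 probe sets 16 were tested, 2 were higher, 0 were lower (limma; 0 also at an unadjusted p under 0.05), and their median change was -0.02. Kif5c probe set 1450804_at gave 266, 422 and 174 on Dap12-ko arrays, against 26.3, 22.7 and 15.8 on Dap12-het arrays. Every Dap12-ko signal was thus above every Dap12-het signal, with means of 288 ± 125 and 21.6 ± 5.32 (SD, n = 3 each), and the change was 2.94 ± 0.31 (adjusted p = 0.0171). It entered the test through its Dap12-ko signals, since its Dap12-het signals centred below the level of the filter, which corresponds to a signal of 24.2. With no filter on level it still passed (adjusted p = 0.0185). The call was lost without Dap12-ko 67 (adjusted p = 0.0598), Dap12-ko 68 (0.0982), Dap12-het 75 (0.126) or Dap12-het 81 (0.0937), with changes from 2.63 to 3.24 over all arrays left out singly.

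The other Kif5c probe sets gave different results. Probe set 1455266_at, the brightest, gave 1321, 1051 and 2678 on Dap12-ko arrays, against 1930, 2138 and 2363 on Dap12-het arrays. Dap12-ko 67 and 68 lay below all Dap12-het arrays and Ko1 above them. Its change was -0.46 ± 0.31 (95% interval -1.17 to 0.26, adjusted p = 0.441). Kif5c probe set 1422945_a_at had an estimate of -0.04 ± 0.27 (adjusted p = 0.947), with 336 ± 30.9 on Dap12-ko arrays and 361 ± 139 on Dap12-het arrays (SD, n = 3 each). The fourth Kif5c probe set, 1457255_x_at, was below 10 on every array and was not tested.

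Kif5a likewise differed between its probe sets. Probe set 1450249_s_at gave 327, 667 and 450 on Dap12-ko arrays, against 77.3, 111 and 50.8 on Dap12-het arrays, with no overlap. Its change was 2.37 ± 0.32 (adjusted p = 0.0205). The brightest Kif5a probe set, 1434670_at, gave 4689, 3689 and 4611 on Dap12-ko arrays and 3960, 4106 and 4047 on Dap12-het arrays. These overlap, and the change was 0.09 ± 0.15 (95% interval -0.25 to 0.44, adjusted p = 0.767). With quantile normalization it took the other sign (-0.39, adjusted p = 0.19), as it did with arrays centred on their medians (-0.31). The rise of 1450249_s_at passed with all 6 arrays and without Dap12-ko Ko1, but not without Dap12-ko 67 (adjusted p = 0.0583), Dap12-ko 68 (0.11), Dap12-het 75 (0.126), Dap12-het 76 (0.0521) or Dap12-het 81 (0.0964).

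Kif5b, the heavy chain used in most tissues, had 6 tested probe sets and no call. The brightest, 1418427_at, gave 1559, 1097 and 968 on Dap12-ko arrays and 1161, 1267 and 1108 on Dap12-het arrays. Its change was 0.01 ± 0.21 (95% interval -0.46 to 0.48). Kif5b probe sets 1418430_at, 1418429_at, 1418431_at and 1418428_at had estimates of -0.33, -0.46, -0.43 and -0.71, none past the threshold (adjusted p from 0.321 to 0.516). The sixth, 1453524_at, had an estimate of 0.60 ± 0.33 (adjusted p = 0.339). Among light chains, Klc1 on its brightest probe set 1417005_at read 2183, 2608 and 2114 on Dap12-ko arrays and 2583, 2460 and 2504 on Dap12-het arrays, a change of -0.13 ± 0.15. Klc1 probe set 1448541_at read 387, 688 and 546 on Dap12-ko arrays, against 209, 288 and 110 on Dap12-het arrays. The groups did not overlap there, yet the change of 1.40 ± 0.34 missed the threshold (adjusted p = 0.0735). Klc1 on 1428881_at had an estimate of 0.05 ± 0.20. Klc4 had an estimate of -0.24 ± 0.19 on 1417108_at and of 0.80 ± 0.32 on 1425547_a_at, and Klc3 was too dim to be tested.

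**Figure D2:**
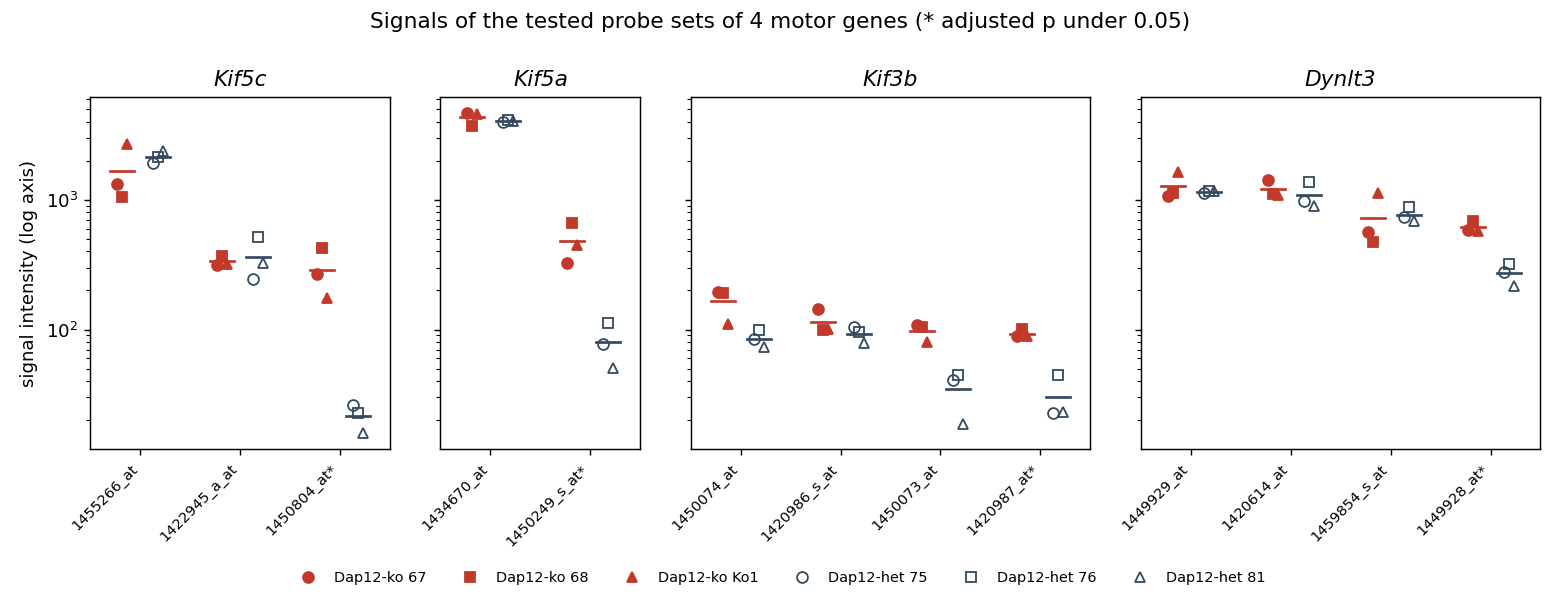
Signals on a log axis of every tested probe set of the 4 genes with a call, Dap12-ko arrays filled and Dap12-het arrays open, with a bar at each group mean and an asterisk at an adjusted p under 0.05. In Kif5c and Kif5a the starred probe set is separated between groups while the brightest one overlaps. In Kif3b 3 of the 4 probe sets are separated, and in Dynlt3 only the starred one.

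Kinesin-2 moves membrane cargo in axons and material along cilia, as a complex of Kif3a with Kif3b or Kif3c, or as the Kif17 motor of dendrites. Of 13 probe sets 12 were tested, 1 was higher and 0 were lower (limma; 0 also at an unadjusted p under 0.05), with a median change of 0.14. Kif3b probe set 1420987_at gave 89.5, 101 and 88.5 on Dap12-ko arrays, against 22.8, 44.5 and 23.1 on Dap12-het arrays (change 1.27 ± 0.26, adjusted p = 0.0479). Other probe sets of the gene had estimates in the same direction. Kif3b on 1450073_at read 108, 104 and 79.8 on Dap12-ko arrays and 40.7, 44.5 and 18.6 on Dap12-het arrays (1.20 ± 0.28, adjusted p = 0.0676). On 1450074_at, its brightest, Kif3b read 194, 193 and 111 on Dap12-ko arrays and 84.3, 98.3 and 72.7 on Dap12-het arrays (0.82 ± 0.26, adjusted p = 0.125). The groups did not overlap on these 3, although only the first passed. The remaining Kif3b probe set, 1420986_s_at, overlapped between groups at 115 ± 24.7 on Dap12-ko arrays and 92.9 ± 13.1 on Dap12-het arrays (SD, n = 3 each), a change of 0.25 ± 0.22. The call of 1420987_at depended on the settings. Its adjusted p was 0.0867 with quantile normalization, and the call was also lost with median centring (0.09), with signals below 1 set to 1 and none added (0.0596), with no filter (0.107), without a trend (0.0548) and when any array other than Dap12-ko Ko1 was left out (from 0.107 without Dap12-het 76 to 0.229 without Dap12-het 75, with 0.116, 0.167 and 0.188 without Dap12-ko 67, Dap12-ko 68 and Dap12-het 81). Without Dap12-ko 67 and 68 together, which leaves Ko1 as the only Dap12-ko array, its change was 1.21.

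Other kinesin-2 subunits had no probe set past the threshold. Kif3a on 1420375_at read 627, 518 and 319 on Dap12-ko arrays and 431, 481 and 487 on Dap12-het arrays, a change of 0.01 ± 0.25 (95% interval -0.56 to 0.59). Dap12-ko 67 and 68 were above all Dap12-het arrays and Ko1 below them, so this estimate averages opposite deviations. Kif3a on 1455652_at read 376, 254 and 184 on Dap12-ko arrays, against 125, 119 and 161 on Dap12-het arrays (0.88 ± 0.27, adjusted p = 0.12), and the remaining estimates for this gene were -0.24 and 0.10. Kif3c had an estimate of 0.05 ± 0.17 on 1448946_at (95% interval -0.34 to 0.43) and of -0.17 ± 0.23 on 1434947_at. Kif17 had an estimate of -0.17 ± 0.21 on 1422762_at and 0.18 ± 0.29 on 1419827_s_at.

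Kinesin-3 motors carry synaptic vesicle precursors (Kif1a and Kif1b), other vesicles (Kif1c, Kif13a and Kif13b) and early endosomes (Kif16b). Of 26 probe sets 15 were tested, and 0 passed (limma; 2 higher and 2 lower at an unadjusted p under 0.05). Kif1b probe set 1451762_a_at came nearest, at 216, 344 and 131 on Dap12-ko arrays, against 58.4, 81.9 and 37.3 on Dap12-het arrays (1.66 ± 0.36, adjusted p = 0.0555). All Dap12-ko signals were above all Dap12-het signals. Kif1b on its brightest probe set, 1423994_at, read 2961, 2184 and 1455 on Dap12-ko arrays and 1879, 1878 and 1967 on Dap12-het arrays. That is a change of 0.15 ± 0.25 (95% interval -0.41 to 0.70), with Ko1 below and 67 and 68 above the Dap12-het range. Kif1b probe sets 1451200_at and 1423995_at had the same order of arrays, with changes of 0.52 ± 0.33 and 0.48 ± 0.43.

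Kif1a read 945, 1133 and 485 on Dap12-ko arrays and 661, 839 and 482 on Dap12-het arrays on 1450108_at, its brightest (0.31 ± 0.33, adjusted p = 0.625). On 1421053_at Kif1a read 324, 670 and 262 on Dap12-ko arrays, against 201, 185 and 143 on Dap12-het arrays (1.08 ± 0.33, adjusted p = 0.12). The brightest Kif13a probe set, 1455746_at, lay the other way, at 123, 110 and 76.6 on Dap12-ko arrays, against 198, 165 and 214 on Dap12-het arrays. Its change of -0.82 ± 0.23 did not pass (adjusted p = 0.0961), but it did with median centring (-1.22, adjusted p = 0.0372), with array weights (-0.70, adjusted p = 0.0289) and without Dap12-ko Ko1 (-0.65, adjusted p = 0.0413). With any other array left out its adjusted p ran from 0.137 to 0.325. Kif13a on 1447853_x_at had an estimate of 1.03 ± 0.47 and Kif13b on 1436056_at one of -0.55 ± 0.28. Kif1c had an estimate of -0.52 ± 0.20 on 1424746_at and of 0.54 ± 0.27 on 1436224_at, with no overlap between groups on either.

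Kif2a, a kinesin-13 that takes microtubules apart at their ends and does not walk, was the 1 member gene with tested probe sets in opposite directions that each reached an unadjusted p under 0.05. Probe set 1450053_at, its brightest, read 330, 321 and 514 on Dap12-ko arrays, against 573, 599 and 543 on Dap12-het arrays (-0.57 ± 0.22, adjusted p = 0.186). Probe set 1452499_a_at read 104, 129 and 80.2 on Dap12-ko arrays, against 65.6, 70.6 and 62.1 on Dap12-het arrays (0.53 ± 0.23, adjusted p = 0.225). Neither passed the threshold. Kif2a on 1450052_at was lower on every Dap12-ko array by a small margin (263 ± 6.77 on Dap12-ko arrays and 294 ± 16.9 on Dap12-het arrays, SD, n = 3 each), and on 1454107_a_at it had an estimate of 0.88 ± 0.40.

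Of the remaining kinesins of neurons, Kif21a and Kif21b, which regulate microtubule growth, had 3 probe sets tested with changes from -0.58 to -0.17, none past the threshold. Kif21b on 1435772_at read 206, 134 and 100.5 on Dap12-ko arrays and 219, 182 and 211 on Dap12-het arrays (-0.48 ± 0.26, adjusted p = 0.327). Kifc2, a kinesin-14 of dendrites, read 514, 365 and 463 on Dap12-ko arrays and 608, 640 and 494 on Dap12-het arrays on 1421312_a_at (-0.37 ± 0.20, adjusted p = 0.333), and had an estimate of 0.02 ± 0.19 on 1426493_a_at. Kifc3 had an estimate of -0.41 ± 0.24.

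The group of mitotic and other kinesins was mostly too dim: 24 of its 29 probe sets were not tested, and 10 of its 15 genes had no tested probe set. These include Kif11, the motor that pushes spindle poles apart, Kif20a, Kif20b and Kif23, which work in cytokinesis, and Kif18a. Their signals stayed at or under 69.8 on every array. In the same arrays, 0 of 14 probe sets for 9 genes of dividing cells were bright enough to test, so no call was possible for them. The 5 tested members of the group were Kif18b, Kif22, Kif26b, Kif6 and Kif9, with changes from -0.23 to 0.94 and none past the threshold. Kif18b read 45.4, 57.7 and 22.3 on Dap12-ko arrays and 12, 22.7 and 6.65 on Dap12-het arrays, which overlap (adjusted p = 0.184), and it was the member closest above the filter. Just under the filter were Kif1b probe set 1451642_at, with a mean of 25.7 over the 6 arrays, and Kif13a probe set 1439532_s_at with 25.2, against 27.8 for Kif18b.

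Cytoplasmic dynein is built around a pair of heavy chains that hold the motor (Dync1h1, and Dync2h1 for transport in cilia), with intermediate, light intermediate and light chains that hold cargo. Both heavy chains and both intermediate chains had estimates below 0, and 0 of these 4 probe sets passed (limma). At an unadjusted p under 0.05, 3 of them were lower, against 9.22% of all probe sets tested. The 4 are too few to give a share of their own. Dync1h1 on 1416648_at read 689, 650 and 419 on Dap12-ko arrays, against 1129, 1108 and 1406 on Dap12-het arrays. The highest Dap12-ko signal was well under the lowest Dap12-het signal, but the change of -1.05 ± 0.23 missed the threshold (adjusted p = 0.0553). Its adjusted p was 0.0952 with quantile normalization, 0.0897 with no filter and 0.0797 without a trend, and it ran from 0.109 to 0.217 when any array other than Dap12-ko Ko1 was left out. Dync1h1 passed with arrays centred on their medians (-1.46, adjusted p = 0.0257), with array weights (-0.86, adjusted p = 0.0066) and without Dap12-ko Ko1 (-0.84, adjusted p = 0.0067). Without Dap12-ko 67 and 68 together, where Ko1 is the only Dap12-ko array, its change was -1.49. Dync1i1, an intermediate chain found mainly in neurons, read 258, 245 and 399 on Dap12-ko arrays, against 632, 540 and 532 on Dap12-het arrays (-0.91 ± 0.22, adjusted p = 0.0739). Its groups were also apart, and it passed without Dap12-ko Ko1 (-1.12, adjusted p = 0.00273) and with array weights (-1.12, adjusted p = 0.00309). With any other array left out its adjusted p ran from 0.180 to 0.295.

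The widely expressed intermediate chain Dync1i2 read 400, 598 and 502 on Dap12-ko arrays and 630, 666 and 579 on Dap12-het arrays, with overlap (-0.33 ± 0.20, adjusted p = 0.379). Dync2h1 read 81.9, 112 and 94.1 on Dap12-ko arrays, against 172, 132 and 169 on Dap12-het arrays (-0.63 ± 0.21, adjusted p = 0.142). Light intermediate chains were mixed. Dync1li1 had an estimate of 0.17 ± 0.25, and Dync2li1 one of -0.47 ± 0.31. Dync1li2 on 1433926_at read 1345, 1527 and 398 on Dap12-ko arrays and 412, 461 and 302 on Dap12-het arrays. Dap12-ko 67 and 68 stood far above the Dap12-het range and Ko1 within it (1.25 ± 0.46, adjusted p = 0.169). Its second probe set, 1433925_at, was lower on all 3 Dap12-ko arrays, at 501, 656 and 506, against 778, 781 and 661 on Dap12-het arrays (-0.41 ± 0.19, adjusted p = 0.248).

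**Figure D3:**
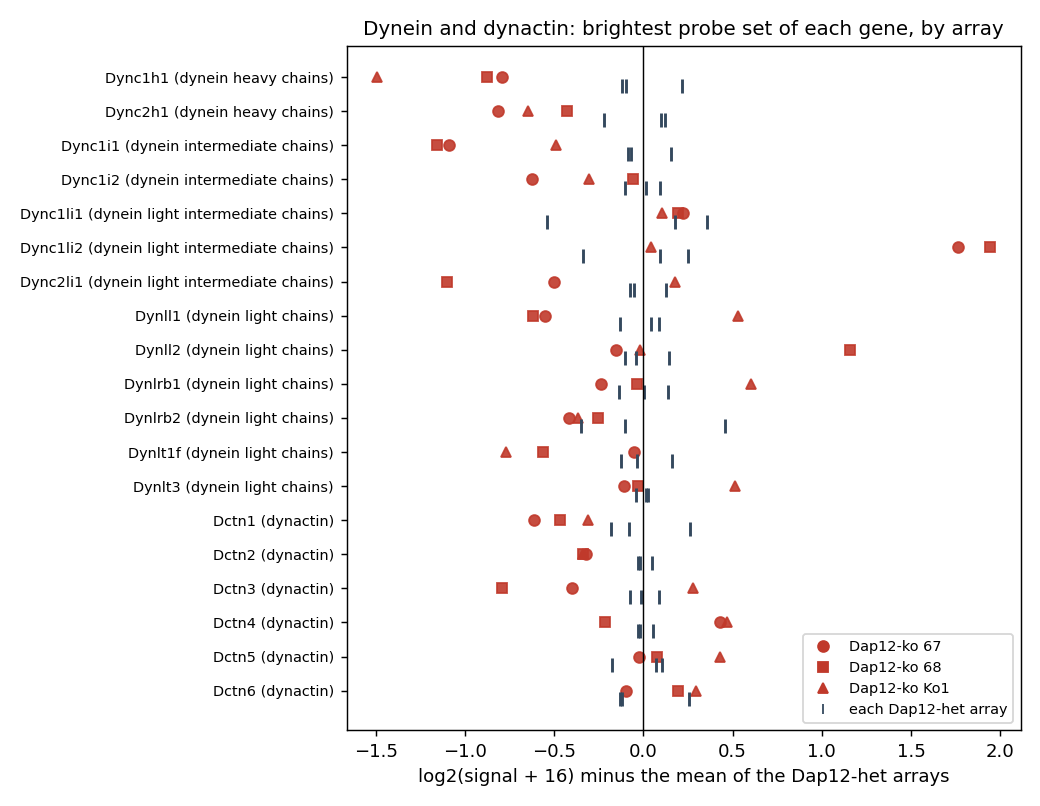
Log2(signal + 16) of each Dap12-ko array (red circle, square and triangle for 67, 68 and Ko1) and each Dap12-het array (bars) minus the Dap12-het mean, for the brightest tested probe set of each dynein and dynactin gene. Dync1h1, Dync2h1, Dync1i1, Dctn1 and Dctn2 lie left of all Dap12-het arrays on every Dap12-ko array. For Dync1li2, Dynll1, Dctn3 and Dync2li1, among others, the triangle lies apart from the other 2.

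Dynein light chains are small dimers at the base of the complex that also bind many other proteins. Of 13 probe sets, all tested, 1 was higher and 0 were lower (limma; 0 also at an unadjusted p under 0.05), with a median change of 0.11. Dynlt3 probe set 1449928_at read 590, 687 and 576 on Dap12-ko arrays, against 276, 322 and 215 on Dap12-het arrays (1.16 ± 0.20, adjusted p = 0.0358). The groups were apart, and the 3 other Dynlt3 probe sets had estimates of 0.12 ± 0.20 (1449929_at), 0.17 ± 0.21 (1420614_at) and -0.18 ± 0.31 (1459854_s_at). The call of 1449928_at was lost with median centring (0.75, adjusted p = 0.0968), with no filter (adjusted p = 0.0503) and without a trend (0.0552). It was also lost when any array other than Dap12-ko Ko1 was left out. The adjusted p then ran from 0.103 without Dap12-ko 67 to 0.188 without Dap12-het 75. It was 0.149, 0.107 and 0.162 without Dap12-ko 68, Dap12-het 76 and Dap12-het 81. Without Dap12-ko 67 and 68 together, which leaves Ko1 as the only Dap12-ko array, the change was 1.06.

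Dynll1, the light chain LC8, read 2674, 2551 and 5687 on Dap12-ko arrays and 3577, 4049 and 4176 on Dap12-het arrays on 1417339_a_at. Its probe sets 1456125_a_at and 1448682_at showed the same order, with Ko1 highest of all 6 arrays and 67 and 68 below the Dap12-het arrays, so the estimates of -0.21 ± 0.29, 0.06 ± 0.24 and 0.05 ± 0.27 average opposite deviations. Without Dap12-ko Ko1, 1417339_a_at passed as lower (-0.58, adjusted p = 0.00832). With Dap12-ko 67 and 68 left out, which leaves Ko1 alone, the changes of 1456125_a_at and 1448682_at were 0.62 and 0.72. Dynll2, a close relative of Dynll1, read 1632, 4075 and 1790 on Dap12-ko arrays and 1768, 2009 and 1687 on Dap12-het arrays on 1418258_s_at. Dap12-ko 68 alone was high, as it was on 1418371_at (307, 660 and 272 on Dap12-ko arrays, 310, 331 and 334 on Dap12-het arrays). Dynlrb1, a roadblock light chain, read 1292, 1489 and 2325 on Dap12-ko arrays and 1681, 1528 and 1385 on Dap12-het arrays (0.11 ± 0.23). Dynlrb2, the other roadblock chain, and Dynlt1f had estimates of -0.34 ± 0.26 and -0.46 ± 0.28.

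Dynactin links dynein to cargo and keeps it on the microtubule; Dctn1 encodes its large p150Glued subunit and Dctn2 its dynamitin subunit. Of 14 probe sets 13 were tested and 0 passed (limma; 3 higher and 1 lower at an unadjusted p under 0.05). Dctn1 on 1435414_s_at read 833, 922 and 1028 on Dap12-ko arrays, against 1210, 1130 and 1539 on Dap12-het arrays (-0.46 ± 0.18, adjusted p = 0.199). Dctn2 read 764, 757 and 754 on Dap12-ko arrays, against 992, 948 and 939 on Dap12-het arrays (-0.33 ± 0.15, adjusted p = 0.257). Both were apart between groups. Dctn1 on its other probe set, 1422521_at, read 820, 794 and 352 on Dap12-ko arrays and 722, 710 and 660 on Dap12-het arrays.

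Dctn4, Dctn5 and Dctn6 encode subunits of the pointed-end complex of dynactin, and their estimates did not all lie on the same side of 0. Dctn5 on 1458247_s_at read 561, 431 and 440 on Dap12-ko arrays, against 296, 258 and 310 on Dap12-het arrays (0.69 ± 0.19, adjusted p = 0.094), and on 1415748_a_at it had an estimate of 0.16 ± 0.20. The 5 tested Dctn4 probe sets had estimates from 0.23 to 0.91, none past the threshold, and the highest was that of 1420863_at. Dctn6 on 1416499_a_at had the lowest estimate of the 92, -1.56 ± 0.86, and the widest error. It read 39.7, 49.7 and 767 on Dap12-ko arrays and 404, 475 and 337 on Dap12-het arrays. Dap12-ko 67 and 68 were far below the Dap12-het arrays and Ko1 was the highest of all, whereas Dctn6 on 1448368_at read 343, 422 and 454 on Dap12-ko arrays and 441, 336 and 334 on Dap12-het arrays.

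Probe sets of 1 gene often differed, and so did the Dap12-ko arrays. For the 24 motor genes with several tested probe sets, 0 of the brightest probe sets passed (limma), with a median change of 0.01. At an unadjusted p under 0.05, 2 were higher and 4 lower, against 362 and 671 of the 5190 such genes of the array. Groups were apart upwards for 1 (4.17%, against 10.1% over the array) and downwards for 5 (20.8%, against 17.4%). Of the other 48 probe sets 4 passed as higher (8.33%), with a median change of 0.24. Of these 48, 15 had groups apart upwards (31.2%) and 2 downwards (4.17%). Among the 48 are Kif5c 1450804_at, Kif5b 1453524_at, Kif13a 1447853_x_at, Klc4 1425547_a_at and Dctn4 1420863_at. These were tested through their Dap12-ko signals and had to lie above 0, so the filter itself shifts the 48 upwards. Over all 5190 genes of the array with several tested probe sets, 0.617% of the brightest passed as higher and 1.16% as lower, with a median change of -0.11. Of the 8455 others 2.33% passed as higher, 21.5% were apart upwards and 9.17% downwards. Their median change was 0.14, so the medians over the array stood in the same order. With the brightest tested probe set of each of the 44 motor genes, the median change was -0.19, against -0.09 over all 11467 genes. Groups were then apart upwards for 1 (2.27%, against 9.93%) and downwards for 9 (20.5%, against 16%). The brightest probe set was picked by its mean over all 6 arrays, so its choice is not independent of the signals compared. Between arrays, 67 and 68 both lay on one side of the Dap12-het range and Ko1 on the opposite side for 17 of the 92 motor probe sets, 8 with Ko1 below (8.7%, against 6.09% of all probe sets tested) and 9 with Ko1 above (9.78%, against 6.79%).

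**Figure D4:**
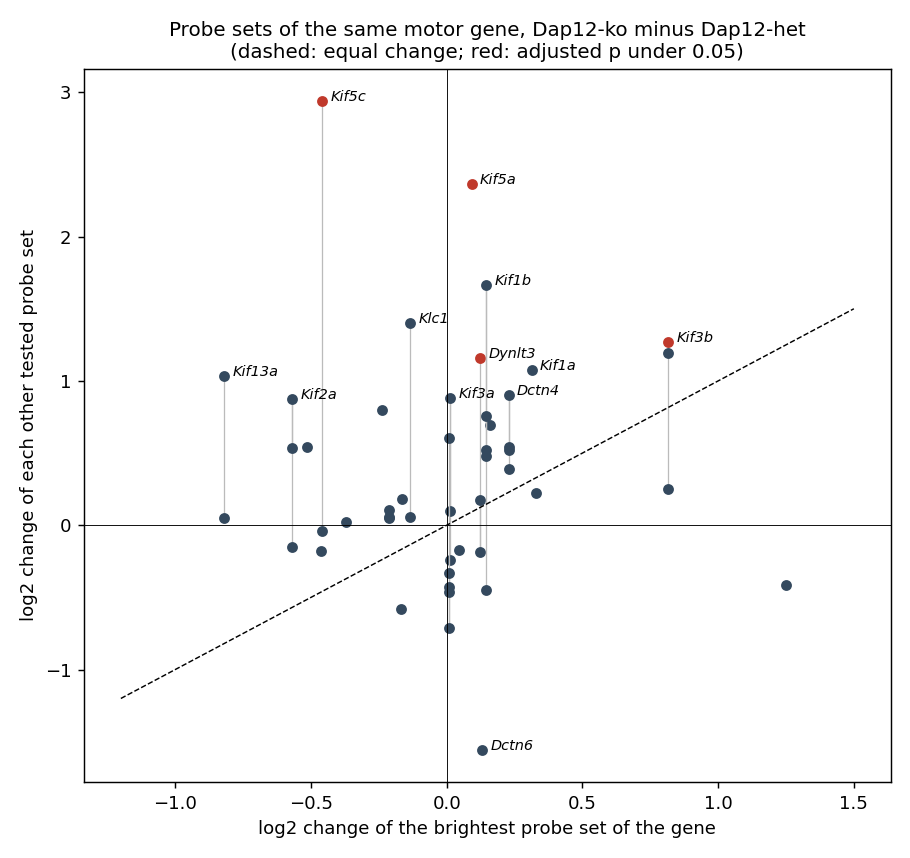
Change of each other tested probe set (vertical) against the change of the brightest probe set of the same gene (horizontal), both log2 of signal + 16, Dap12-ko minus Dap12-het, for 24 motor genes. Lines join probe sets of 1 gene; the 4 red points passed the threshold. Points lie on both sides of the dashed line of equal change. The red points of Kif5c, Kif5a, Dynlt3 and Kif3b lie above it, and Dctn6 1416499_a_at and Dync1li2 1433925_at lie far below.

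Adaptors, cargo linkers and regulators of the motors, among them subunits of dynactin outside the naming rule, were measured by 111 probe sets of 45 genes, of which 94 were tested. Of these, 0 rose (limma) and 2 fell (2.13%, against 0.733% of all probe sets tested), and their median change was 0.08. At an unadjusted p under 0.05, 18 were higher (19.1%, against 11.7% of all probe sets) and 11 were lower (11.7%, against 9.22%). Hap1, the huntingtin-associated protein that ties dynactin and kinesin-1 to cargo, read 204, 285 and 326 on Dap12-ko arrays, against 797, 774 and 730 on Dap12-het arrays. The groups were far apart, and the log2 change of Hap1 was -1.47 ± 0.21 (adjusted p = 0.0228). Mapre3, which encodes the microtubule end-binding protein EB3, read 189, 143 and 178 on Dap12-ko arrays, against 495, 495 and 562 on Dap12-het arrays (-1.52 ± 0.19, adjusted p = 0.0171). Each is the 1 probe set that the annotation lists for its gene. With Dap12-ko 67, Dap12-ko 68 or any 1 Dap12-het array left out the count of adaptor calls was 0 by limma, and without Dap12-ko Ko1 it was 26. Over all 22518 probe sets there were likewise 0 calls in the former settings, or 29 without Dap12-het 76. Without Dap12-ko Ko1, 11.9% of all probe sets were called higher and 11.3% lower.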

How the data were processed

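Per the submitters' processing notes the authors made the deposited signal intensities with GCOS, the Affymetrix scanner software; the sources used here do not give its version or summary algorithm. The trimmed mean (2% removed at each end) of the deposited intensities was 100 on every array, and that scaling was kept. Genes were named from the platform annotation (1 symbol per probe set).

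Signals were transformed as log2(signal + 16). The 64 control probe sets were left out, and probe sets whose mean transformed value over the 6 arrays was above the median were tested (22518). Dap12-ko was compared with Dap12-het in limma 3.58.1 (R 4.3.3; lmFit, eBayes with trend, two-sided) with Benjamini-Hochberg adjustment over all of them; intervals are 95%. The number of arrays limits the precision.

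The members and lists were chosen with earlier results of these data known. Named were members past the threshold, the 5 with the smallest p in each direction, genes with opposed probe sets, and the brightest probe sets of 20 fixed genes; other values were singled out after they were seen. Kif28 was assigned to its role group afterwards. No paired analysis was possible because the groups share no replicate numbers.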

Additional observations from a re-analysis of the deposited data

Results flagged for a closer look

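Of the 45 spiked control probe sets, which enter no comparison of the motor genes, 43 were higher on every Dap12-ko array than on every Dap12-het array. Their median signal was 10252, 7416 and 10794 on Dap12-ko 67, 68 and Ko1, against 3717, 3931 and 4087 on Dap12-het 75, 76 and 81, and the median ratio of group means was 3.48. Their part in the motor results was not tested.

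Among the 54 motor probe sets too dim to be tested, 9 were higher on every Dap12-ko array than on every Dap12-het array (16.7%, against 18.8% of all 22519 probe sets not tested) and 1, for Kif26a, was lower (1.85%, against 2.32%). Both shares are near those of all dim probe sets. Kif2c probe set 1449060_at read 40.9, 21.9 and 24.2 on Dap12-ko arrays, against 10.2, 11.8 and 8.46 on Dap12-het arrays. Kif12 probe set 1453193_s_at read 30.3, 49.1 and 10.2 on Dap12-ko arrays, against 1.83, 4.34 and 1.77 on Dap12-het arrays. Median signals over the whole table were also higher on Dap12-ko arrays, at 40.4, 35.8 and 24.7, against 20.3, 22.0 and 21.4 on Dap12-het arrays.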

How the results depend on the processing

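The count of higher motor probe sets (4) was 2 with arrays centred on their medians (0.444% of all probe sets called higher) and with no filter on level (0.14%). It was also 2 without a trend (0.546%) and with only the upper 11259 probe sets by level (1.49%). In the last of these, Kif5c 1450804_at and Kif3b 1420987_at were not tested. With array weights the count was 22 (11% of all probe sets). Leaving out 1 array gave 0 to 21 (0% to 11.9% of all probe sets). The count of lower ones (0) was 2 with median centring (2.14% of all probe sets) and 10 with array weights (10.3%). It ran from 0 to 15 with 1 array left out (0% to 11.3%). Over all probe sets, 445 calls became 126 with quantile normalization, 124 with no filter, 180 without a trend and 4786 with array weights, and 0 to 5226 with 1 array left out. The median change over the whole array was -0.40 with median centring and -0.06 with quantile normalization, and median centring gave 100 calls higher and 481 lower, against 280 and 165 as deposited. Adaptors and regulators (2 calls) had 2 with quantile normalization, 3 with median centring and 24 with array weights. With array weights, 11% of all probe sets were called higher and 10.3% lower. Adding 64 or robust estimation changed no call of the 28 named probe sets.

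Of the 28 named probe sets, none that passed turned sign. Those that did turn sign were the following, each the brightest probe set of its gene. For Kif5a, Kif5c, Kif1b and Kif2a they were 1434670_at, 1455266_at, 1423994_at and 1450053_at. With median centring the changes were -0.23 for Dync1li1, -0.073 for Dynll2, -0.29 for Dynlrb1, -0.088 for Kif1a, -0.26 for Kif1b, -0.39 for Kif3a, -0.35 for Kif3c, -0.31 for Kif5a and -0.39 for Kif5b, and with quantile normalization -0.39 for Kif5a. With array weights they were -0.076 for Dynlrb1 and -0.00104 for Kif5b. Without Dap12-ko 67 and 68 they were 0.53 for Dynll1, -0.021 for Dynll2, -0.40 for Kif1a, -0.39 for Kif1b, -0.52 for Kif3a, -0.28 for Kif5b and 0.32 for Kif5c. With 1 mean per gene they were 0.087 for Kif13a, 0.17 for Kif2a, 0.000227 for Dynll1, -0.062 for Kif3c, -0.22 for Kif5b, 0.81 for Kif5c and 0.44 for Klc1. With 1 array left out the changes ran from -0.10 to 0.35 for Dync1li1, -0.087 to 0.57 for Dynll2, -0.14 to 0.28 for Dynlrb1, -0.10 to 0.41 for Kif1b, -0.19 to 0.28 for Kif3a, -0.035 to 0.12 for Kif3c and -0.19 to 0.15 for Kif5b. With gene means 1 motor gene of 44 was called, Kif5a (1.23, adjusted p = 0.037), which is 2.27%, against 0.733% of all 11467 genes. Causes were not tested.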
